A study of Mus musculus with 36 samples.

Results

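Transcripts of 40 germline and meiosis genes were followed in a mouse system with 2 stages, embryonic stem cells (ESC) and the neural precursor cells (NPC) made from them. The 40 genes were taken by name from the 51734 gene symbols of the count table, and 37 of them passed the filter on low counts. The other members, Spo11, Figla and Nobox, had too few counts to be tested and are given by their counts below. By role, the set held 4 germ cell RNA-binding and identity factors, 14 genes of the piRNA pathway and germ granule, 7 of the synaptonemal complex and chromosome axis, and 3 of the meiotic cohesin. It also held 6 genes of meiotic recombination, 3 germ cell transcription factors and 3 germ cell paralogs of general factors.

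The mRNA libraries formed 6 groups of 3: wild type (WT), dCD and MLL2dTAG, each as E14 mouse ESC and as NPC. In dCD, named MLL34dCD in the labels, the histone H3K4 methyltransferases MLL3 and MLL4 lack catalytic activity. In MLL2dTAG, named WT-MLL2dTAG there, the H3K4 methyltransferase MLL2 carries a degron, a tag that marks the protein for degradation once dTAG-13 is added. The ESC were grown with LIF, and NPC were obtained with retinoic acid, with dTAG-13 at 2 µM from day 1 and harvest on day 4. Every library used, WT and ESC included, is labelled as treated with dTAG-13, so all groups share it and no comparison isolates the compound. How long ESC were exposed is not given in the sources used here. Each genotype is a cell line of its own, so the edit and other differences between lines cannot be told apart. The labels do not say whether replicates were separate cultures, and p-values then measure only the spread between these libraries, which may be technical.

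In the germline, meiosis pairs homologous chromosomes along a protein axis, joins them by the synaptonemal complex, and exchanges DNA by recombination, while PIWI proteins loaded with piRNAs silence transposons in germ granules. In somatic cells many of these genes are kept silent by DNA methylation of CG-rich promoters and by a noncanonical Polycomb complex. Its MGA and MAX subunits bind the E-box and its E2F6 and DP1 subunits bind E2F sites. In ESC some germline genes are transcribed at a low to moderate level, and MLL2 is known for placing H3K4 methylation at CG-rich promoters.

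The promoters were read first, because the letters that MGA and MAX, or E2F6, recognise can be counted in them. RefSeq promoters (GRCm38.p6) were found for 33 of the 40 members, and there were none for Dppa3, Tdrd6, Piwil2, Spo11, Meiob, Tex11 and Tex15. In the 250 bases before the start, the E-box CACGTG, which reads the same on both strands, was in 13 of 33 members, or 39.4%, against 6.86% of the 27025 genes of the table. Among genes with at least 10 CG dinucleotides in that window, the shares were 12 of 27 members, or 44.4%, and 10.8% of 10871 genes. The E2F letters GGCGGGAA, searched on both strands, were in 3 members (Ddx4, Syce2 and Hormad1), or 9.09%, against 2.13% of all genes. These 3 also held an E-box. A match describes the letters only and is no evidence of binding.

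The 13 members held 16 E-boxes, of which 6 began within 60 bases of the start. Those 6 are shown, with 10 bases on either side, because they lie closest to the start. Capitals mark the E-box, and each line reads 5′ to 3′ on the strand of the gene.
Ddx4: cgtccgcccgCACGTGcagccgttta
Tdrd1: gggctgcgcgCACGTGggagtaaact
Sycp3: gggcatggagCACGTGctaggaggcg
Hormad1: aagggtgcgcCACGTGccagtgacag
Hormad1: gcgcactgcgCACGTGctgaccggag
Taf7l: cctcttatacCACGTGacagaactcg

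The Tdrd1 E-box began 11 bases before the RefSeq start, the Ddx4 E-box 29 bases before it and the Taf7l E-box 49 bases before it. In the GENCODE annotation Ddx4 starts further upstream, and this E-box lies inside the annotated gene. Hormad1 held a pair, at 57 and 20 bases. Sycp3 also held a pair, at 64 and 43 bases, and the second is shown.

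Longer promoters are shown for 6 members whose transcripts changed at least 2-fold in 1 line at both stages or in both lines at 1 stage. They were ranked by the smaller of the 2 changes, a ranking chosen after the values were seen, and bases inside annotated exons were left out. Ddx4 and Tdrd5 rank among them but are not shown, since their longest stretches outside exons were 85 and 0 bases and at least 100 were required, and Meiob, Tex15 and Tex11 have no entry in the table. The windows are chr2:178407686-178407908 (minus strand), chr19:56825959-56826208 (plus), chr15:79605110-79605359 (minus), chr17:50293637-50293870 (minus), chr11:121145893-121146142 (plus) and chrX:134476491-134476740 (minus).
Sycp2: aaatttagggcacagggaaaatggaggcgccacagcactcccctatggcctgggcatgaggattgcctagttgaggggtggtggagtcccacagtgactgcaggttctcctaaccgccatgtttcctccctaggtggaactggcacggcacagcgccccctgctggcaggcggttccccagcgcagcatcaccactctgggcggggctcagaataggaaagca
Tdrd1: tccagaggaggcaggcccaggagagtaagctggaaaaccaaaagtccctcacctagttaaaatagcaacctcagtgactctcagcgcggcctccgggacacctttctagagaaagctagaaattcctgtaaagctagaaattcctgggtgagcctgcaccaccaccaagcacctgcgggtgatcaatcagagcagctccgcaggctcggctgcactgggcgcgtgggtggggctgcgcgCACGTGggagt
Dmc1: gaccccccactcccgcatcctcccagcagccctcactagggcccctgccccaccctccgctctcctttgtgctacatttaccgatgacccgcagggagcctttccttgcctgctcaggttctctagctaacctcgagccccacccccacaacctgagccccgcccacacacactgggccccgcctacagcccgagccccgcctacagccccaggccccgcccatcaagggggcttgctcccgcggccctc
Dazl: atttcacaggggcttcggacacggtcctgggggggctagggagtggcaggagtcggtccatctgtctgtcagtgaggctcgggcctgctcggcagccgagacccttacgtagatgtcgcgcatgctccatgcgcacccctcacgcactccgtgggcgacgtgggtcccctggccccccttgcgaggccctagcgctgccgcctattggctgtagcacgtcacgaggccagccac
Tex19.1: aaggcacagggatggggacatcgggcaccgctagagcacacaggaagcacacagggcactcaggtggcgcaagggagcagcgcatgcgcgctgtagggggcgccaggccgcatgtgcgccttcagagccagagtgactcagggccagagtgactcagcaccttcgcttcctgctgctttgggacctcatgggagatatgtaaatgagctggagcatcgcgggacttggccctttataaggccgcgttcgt
Taf7l: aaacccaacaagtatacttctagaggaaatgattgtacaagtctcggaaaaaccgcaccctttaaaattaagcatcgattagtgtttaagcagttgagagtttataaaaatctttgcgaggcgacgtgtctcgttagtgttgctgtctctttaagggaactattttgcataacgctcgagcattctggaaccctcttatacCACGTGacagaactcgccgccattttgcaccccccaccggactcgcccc

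In these windows Tdrd1 and Taf7l held the E-box, in capitals, and the other 4 held neither set of letters. The 250 bases before the start held 20 CG dinucleotides in Dazl, 15 in Tex19.1, 14 in Taf7l, 12 in Dmc1, 11 in Tdrd1 and 7 in Sycp2. Over the 33 members the median was 14, against 6 over all genes of the table, and 81.8% of members against 40.2% of genes held at least 10. The highest counts were 40 in Tdrd5 and 31 in Ddx4, and the lowest was 1 in Gtsf1l. Where a gene had several starts, the start with most CG was used for these medians, which gives Tdrd1 22.

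**Figure D1:**
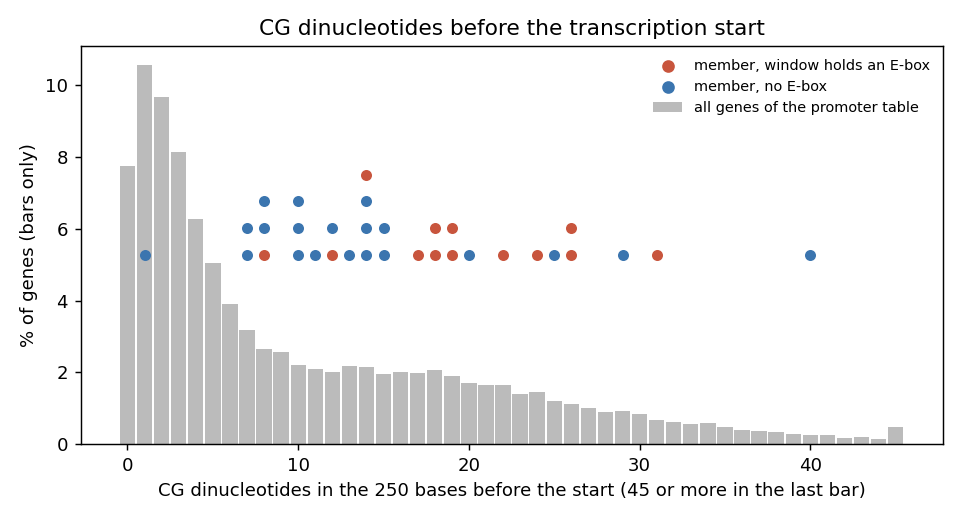
CG dinucleotides in the 250 bases before the transcription start (x axis) for all genes of the RefSeq promoter table (bars, percent of genes on the y axis) and for the 33 matched members (points, with heights chosen only to keep them apart). Red points hold the E-box and blue points do not. Members have a median of 14 CG and all genes a median of 6.

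Library totals were 19.4 to 46.0 M counts (M for mega), and 3 counts, the floor used for a count of 0, came to 0.0652 to 0.154 CPM (counts scaled to 1 M counts per library) in a library. Replicates differed by more than sampling noise, and none were identical. ESC WT replicate 2 stood furthest apart. Its chi-square per degree of freedom was 10.5 against replicate 1 and 8.38 against replicate 3, where all other replicate pairs had 2.19 to 4.43. ESC WT is the reference of all ESC comparisons with WT, and leaving out its replicate 2 ended 9 calls of members. The labelled cell types matched their defining genes: 8 ESC markers such as Pou5f1 and Nanog summed to 4155 CPM in ESC WT and 33.9 in NPC WT, and 8 NPC markers such as Pax6 and Sox1 to 127 and 369. The sum of the NPC markers was higher in NPC of the edited lines. The ranges were 583 to 634 CPM in dCD and 444 to 456 in MLL2dTAG, against 365 to 373 in WT. Of these 8 markers, 6 were called higher and 0 lower in NPC dCD (adjusted p under 0.05, edgeR). In NPC MLL2dTAG 5 were higher and 2 lower, with a median log2 change of 0.23. Of all genes, 26.7% were called higher and 26.8% lower in NPC dCD, and 33.3% and 28.4% in NPC MLL2dTAG. In NPC MLL2dTAG the ESC markers summed to 212 CPM, with a range of 211 to 214, against 33.4 to 34.7 in NPC WT and 49.3 to 50.5 in NPC dCD. The 7 markers of two-cell-like cells, a rare state of ESC cultures, summed in ESC to 18.5 CPM in WT, 97.1 in dCD and 0.0522 in MLL2dTAG. Defining genes of spermatids summed to at most 0.219 CPM in any group. Those of oocytes summed to between 0.847 and 3.98 CPM. The primordial germ cell list summed in ESC to 290 CPM in WT, 252 in dCD and 292 in MLL2dTAG, and to 37.2, 36.1 and 89.3 in the matching NPC. In NPC MLL2dTAG 2 of its 6 genes were called higher and 1 lower, with a median log2 change of -0.04. The Sertoli and granulosa list, whose members Gata4, Sox9 and Wt1 are also used outside the gonad, summed to 517, 243 and 638 CPM in NPC WT, dCD and MLL2dTAG. Of its 5 genes tested, 1 was called higher and 2 lower in NPC dCD, and 2 higher and 2 lower in NPC MLL2dTAG. The shares over all genes are those given above for the NPC markers. Sums of these lists therefore do not stand for each gene in them.

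In ESC WT, 33 of the 40 members had a mean of at least 1 CPM and 23 of at least 10 CPM, with a median of 14.6 CPM. In NPC WT those numbers were 27 and 8, with a median of 2.57 CPM. In bulk RNA, fewer cells with a transcript and less of it per cell cannot be told apart. Per kilobase of exon, the highest levels in ESC WT were those of Syce2, a central element protein of the synaptonemal complex (44.7 CPM per kilobase), Gtsf1l (42.7), the ribosomal protein paralog Rpl10l (41.5) and the cohesin subunit Stag3 (28.7). In NPC WT the cohesin subunit Rec8 led with 46.4 CPM per kilobase, ahead of Syce2 with 15.6. The lowest in ESC WT was Spo11 with 0.0170, and Dppa3 and Figla had no count in NPC WT.

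**Figure D2:**
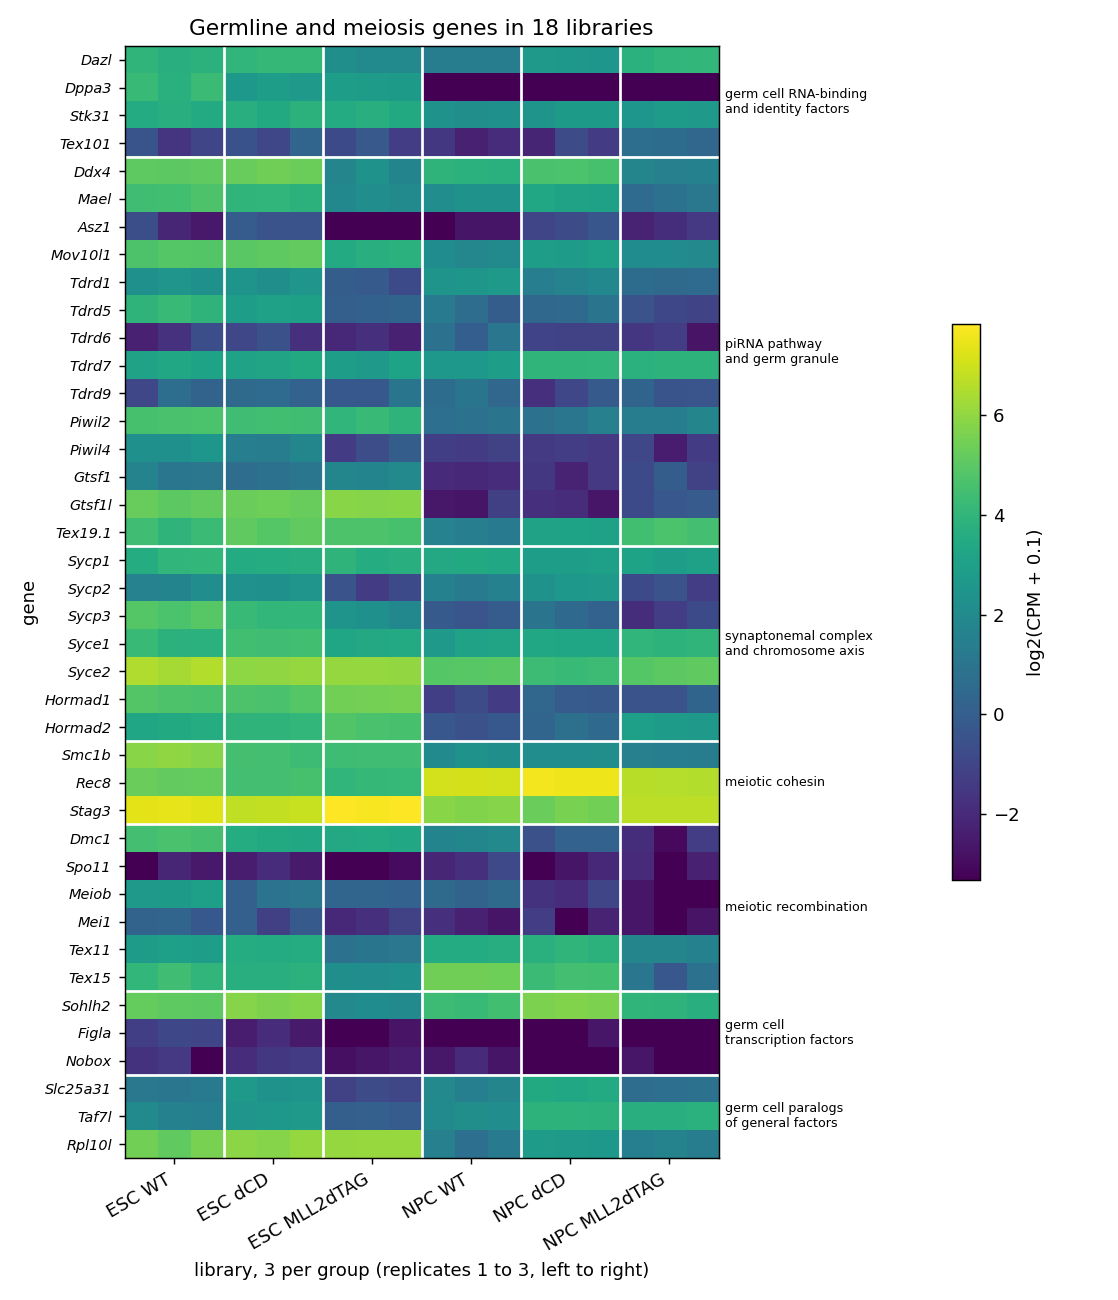
Level of each of the 40 members (rows, grouped by role) in each of the 18 libraries (columns, 3 per group), as log2(CPM + 0.1) in colour. Most rows are lighter in the ESC libraries than in NPC, with Rec8 as a row that is lighter in NPC, and rows such as Ddx4 and Sycp2 are darker in the MLL2dTAG libraries of both stages.

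Differentiation of WT cells lowered most members. Of the 37 tested, 33 were called (adjusted p under 0.05 in the edgeR quasi-likelihood test with Benjamini-Hochberg adjustment over all 20511 genes), 27 lower and 6 higher in NPC, where 79.5% of all genes tested were called, 40.4% lower and 39.1% higher. At least 2-fold lower were 23 of 37 members and 21.2% of all genes, and the median log2 fold change was -2.27 over the members and -0.04 over all genes. Gtsf1l fell from 35.1 ± 2.79 CPM (SD, n = 3) to 0.15 ± 0.16 and Hormad1 from 26.8 ± 2.05 to 0.367 ± 0.121. Dppa3, which protects DNA methylation in the early embryo, had 1312 counts over ESC WT and 0 over NPC WT, at least 586-fold lower against a floor of 3 counts over the group. The 6 members that rose were Rec8, Tdrd6, Tex15, Tex11, Slc25a31 and Taf7l. The change was 2.32 (SE 0.47) on the log2 scale for Tdrd6, 1.88 (SE 0.04) for Rec8 and 1.22 (SE 0.10) for Tex15, and 0.47 to 0.64 for the others.

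In the MLL2dTAG line most members were lower in ESC, and calls went both ways in NPC. In ESC, 32 of 37 members were called in MLL2dTAG against WT, 25 lower and 7 higher, where 56.9% of all genes were called, 28.2% lower and 28.7% higher. At least 2-fold lower were 21 of 37 members and 10.4% of all genes, at least 2-fold higher 1 member and 6.44% of all genes, and the median was -1.16 for the members and -0.00 for all genes. In NPC, 31 were called, 17 lower and 14 higher, where 61.7% of genes were called, 28.4% lower and 33.3% higher. Of these 11 were at least 2-fold lower (11.9% of all genes) and 10 at least 2-fold higher (7.71% of all genes), with medians of -0.37 and 0.03.

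In dCD the calls went both ways in ESC and mostly upward in NPC. In ESC, 26 of 37 members were called, 13 higher and 13 lower, where 48.3% of all genes were called, 25.7% higher and 22.6% lower. At least 2-fold higher were 2 (5.66% of all genes) and at least 2-fold lower 5 (3.86% of all genes). In NPC, 28 were called, 19 higher and 9 lower, where 53.5% of genes were called, 26.7% higher and 26.8% lower. At least 2-fold higher were 11 of 37 members and 7.03% of all genes, at least 2-fold lower 4 members and 4.86% of all genes, and the median was 0.38 against -0.02. Both lines were compared with the same WT libraries at each stage, so their values stand side by side below and their likeness is no independent evidence.

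Among the germ cell RNA-binding and identity factors, Dazl, an RNA-binding protein that controls translation in germ cells, moved in opposite directions at the 2 stages in MLL2dTAG. Its levels in ESC were 15.7, 12.8 and 14.4 CPM in the 3 WT libraries, 16.3, 17.4 and 17.1 in dCD and 4.61, 3.88 and 3.76 in MLL2dTAG. The NPC levels were 2.47, 2.5 and 2.51 in WT, 6.38, 6.07 and 5.72 in dCD and 14, 16.3 and 16.5 in MLL2dTAG. All MLL2dTAG libraries lay below WT in ESC and above both WT and dCD in NPC. The change was -1.81 (SE 0.11) in ESC and 2.64 (SE 0.11) in NPC for MLL2dTAG, and 1.28 (SE 0.12) in NPC for dCD (adjusted p of at most 4.5e-11). The small rise in ESC dCD, 0.25, lost its call without ESC WT replicate 2 (0.18, adjusted p = 0.16), ESC dCD replicate 2 (0.24) or ESC dCD replicate 3 (0.25).

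Dppa3 stood at 18.4, 13.4 and 19.2 CPM in ESC WT, 6.14, 7.57 and 6.41 in dCD and 7.29, 6.89 and 6.73 in MLL2dTAG, with no overlap of either line with WT. The changes were -1.33 (SE 0.14) and -1.28 (SE 0.13), and no NPC library had a count. Tex101, a surface protein of germ cells needed for sperm to fertilise, was at 0.253, 0.106 and 0.167 CPM in NPC WT and 1.54, 1.46 and 1.17 in NPC MLL2dTAG, a change of 2.98 (SE 0.47) with adjusted p = 9.4e-07. Its ESC comparisons did not pass the test. Stk31, a tudor protein of germ cells, was 0.38 higher in NPC dCD and 0.39 higher in NPC MLL2dTAG, with ESC values of 0.09 and -0.05 that did not pass.

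The 14 piRNA and germ granule genes were mostly lower in ESC MLL2dTAG and went both ways in NPC MLL2dTAG. In ESC 9 were lower and 3 higher, with 7 at least 2-fold lower (10.4% of all genes), and in NPC MLL2dTAG 6 were lower and 6 higher. At each stage 85.7% of them were called, against 56.9% (ESC) and 61.7% (NPC) of all genes. In dCD 4 were higher and 3 lower in ESC, and 6 higher and 3 lower in NPC. The share called in dCD was 50% in ESC, near the 48.3% of all genes, and 64.3% in NPC, against 53.5%. Ddx4, the Vasa helicase of germ granules, was at 33.3, 32.1 and 34.4 CPM in ESC WT and 3.3, 5.09 and 3.18 in ESC MLL2dTAG. In NPC it was at 15.1, 14 and 13.3 in WT and 3.23, 2.85 and 2.89 in MLL2dTAG. It was lower in each MLL2dTAG library than in every WT library of its stage, with changes of -3.11 (SE 0.10) and -2.24 (SE 0.11). In dCD it was higher than in WT, at 37.8, 42.3 and 40.6 CPM in ESC and 24.8, 25.5 and 24.3 in NPC, with changes of 0.27 and 0.82.

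Tdrd5, a tudor protein of the piRNA pathway, had the lowest log2 fold change of the members with counts in every ESC library. It was at 15.2, 18.7 and 15.3 CPM in ESC WT, 7.38, 8.36 and 8.05 in dCD and 0.952, 0.993 and 1.12 in MLL2dTAG, 3 levels without overlap. The changes were -1.05 (SE 0.15) in dCD and -3.99 (SE 0.20) in MLL2dTAG. In NPC, WT libraries had 2.4, 1.49 and 0.893 CPM and MLL2dTAG 0.623, 0.441 and 0.391, a change of -1.71 (SE 0.28). Its exons share 176 bases with an antisense gene, 4930518J20Rik, and whether the counting used strand is not given in the sources used here.

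Tdrd1, which binds PIWI proteins through its tudor domains, was at 4.74, 5.5 and 4.72 CPM in ESC WT and 0.879, 0.807 and 0.47 in MLL2dTAG. In NPC the levels were 5.38, 5.99 and 6.42 in WT, 2.64, 3.09 and 3.64 in dCD and 1.42, 1.37 and 1.41 in MLL2dTAG. Groups did not overlap, and the MLL2dTAG changes were -2.83 (SE 0.20) and -2.08 (SE 0.17). Mael, a protein needed for piRNA-directed silencing, was at 21.5, 22.2 and 26.5 CPM in ESC WT and 3.59, 4.31 and 3.89 in MLL2dTAG, and at 4.3, 5.19 and 5.02 and 1.39, 1.77 and 2.11 in NPC. Its changes were -2.57 (SE 0.11) and -1.45 (SE 0.15), again without overlap. In dCD Mael was lower than WT in ESC, with a change of -0.62, and higher in NPC, with 0.88.

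Piwil4, the nuclear PIWI protein MIWI2, was at 4.79, 4.74 and 5.67 CPM in ESC WT and 0.293, 0.528 and 0.887 in MLL2dTAG, a change of -3.09 (SE 0.28). It shares 137 exonic bases with the antisense gene Gm10706. All NPC libraries were below 0.42 CPM, and neither NPC comparison passed. Mov10l1, the helicase that hands over piRNA precursors, was at 26.2, 29.6 and 28.7 CPM in ESC WT and 11.3, 12.8 and 13.7 in MLL2dTAG, a change of -1.16 (SE 0.08) without overlap. Mov10l1 was 0.94 higher in NPC dCD, and its MLL2dTAG value of 0.06 did not pass. Piwil2, the cytoplasmic PIWI protein MILI, changed by -0.58 in ESC MLL2dTAG and by 0.69 in NPC MLL2dTAG.

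Other piRNA genes rose in NPC of the edited lines. Tex19.1, which restrains retrotransposons in germ cells and placenta, was at 2.97, 2.66 and 2.29 CPM in NPC WT, 8.65, 8.88 and 8.38 in dCD and 22, 25.4 and 22.3 in MLL2dTAG. The 3 groups were fully separate, with changes of 1.71 (SE 0.13) and 3.14 (SE 0.11). In ESC it was at 18.7 ± 3.0 CPM in WT, 33 ± 2.55 in dCD and 25.5 ± 1.18 in MLL2dTAG (SD, n = 3). Reads from its paralog Tex19.2 may be shared with it, depending on the counting. Tdrd7, a germ granule tudor protein also used in the lens, was at 6.14, 6.17 and 7.31 CPM in NPC WT, 15.9, 15.5 and 16 in dCD and 14, 14.5 and 14.9 in MLL2dTAG. Both lines lay above WT, with changes of 1.27 (SE 0.10) and 1.14 (SE 0.10). Its small change in ESC MLL2dTAG, -0.27, lost its call with DESeq2, with no filter on low counts (-0.22) and with only the groups compared (-0.28). The call was also lost without ESC WT replicate 2 (-0.19), ESC MLL2dTAG replicate 1 (-0.24) or ESC MLL2dTAG replicate 2 (-0.17, adjusted p = 0.24).

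Tdrd6 and Tdrd9, tudor proteins of late germ granules and of piRNA amplification, went the other way at low levels. Tdrd6 was at 1.68, 0.905 and 1.98 CPM in NPC WT, 0.368, 0.359 and 0.352 in dCD and 0.237, 0.309 and 0.0522 in MLL2dTAG. Each edited library was below every WT library, with changes of -2.07 (SE 0.44) and -2.88 (SE 0.47). Tdrd9 was at 1.42, 1.92 and 1.17 CPM in NPC WT and 0.184, 0.414 and 0.792 in dCD, a change of -1.69 (SE 0.41) that moved to -2.30 without NPC dCD replicate 3. Its MLL2dTAG value in NPC, -0.92, lost its call with DESeq2 and without NPC WT replicate 2 (-0.70, adjusted p = 0.16), NPC MLL2dTAG replicate 2 (-0.77) or NPC MLL2dTAG replicate 3 (-0.82).

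Gtsf1, a cofactor of PIWI proteins, and its paralog Gtsf1l were higher in NPC MLL2dTAG at low levels, 0.474, 0.883 and 0.365 CPM for Gtsf1 and 0.474, 0.706 and 0.808 for Gtsf1l. In NPC WT they were at 0.158, 0.133 and 0.167 and 0.0633, 0.0532 and 0.335 CPM. The changes were 1.92 (SE 0.42) and 2.11 (SE 0.39). In ESC MLL2dTAG Gtsf1l was 0.71 higher. The Gtsf1 value there, 0.57, lost its call with DESeq2 and with a replicate block. That call was also lost without ESC WT replicate 2 (0.45, adjusted p = 0.15), ESC WT replicate 3 (0.49), ESC MLL2dTAG replicate 1 (0.58) or ESC MLL2dTAG replicate 3 (0.50). Asz1, a piRNA protein at mitochondria, had 16 counts over ESC WT, 52 over ESC dCD and 0 over ESC MLL2dTAG, which is at least 6.66-fold lower than WT against a floor of 3 counts over the group. Over NPC it had 4 counts in WT, 55 in dCD and 22 in MLL2dTAG. The NPC dCD change was 3.68 (SE 0.74). The ESC dCD value of 1.69 lost its call without ESC WT replicate 2 (1.38), ESC WT replicate 3 (1.20, adjusted p = 0.14) or ESC dCD replicate 1 (1.52). The NPC MLL2dTAG value of 2.19 lost it without NPC WT replicate 1 (1.71, adjusted p = 0.10) or NPC MLL2dTAG replicate 3 (1.88).

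In the synaptonemal complex and chromosome axis, members of 1 structure moved apart in MLL2dTAG. Of 7 members, 4 were lower and 2 higher in ESC and 3 lower and 3 higher in NPC. In dCD 3 were higher and 3 lower in ESC, and 5 higher and 2 lower in NPC. The share called was 85.7% at both stages in MLL2dTAG, against 56.9% (ESC) and 61.7% (NPC) of all genes. In dCD it was 85.7% and 100%, against 48.3% and 53.5%. Sycp2, a lateral element protein, was at 2.98, 3.15 and 4.35 CPM in ESC WT and 0.623, 0.279 and 0.47 in MLL2dTAG. In NPC it was at 2.91, 2.29 and 2.9 CPM in WT, 5.18, 6.01 and 6.39 in dCD and 0.474, 0.618 and 0.313 in MLL2dTAG. The groups did not overlap at either stage, and the changes were -2.96 (SE 0.25) and -2.49 (SE 0.24) in MLL2dTAG and 1.12 (SE 0.17) in NPC dCD. In ESC dCD the value of 0.52 lost its call without ESC WT replicate 1 (0.44), ESC WT replicate 2 (0.44, adjusted p = 0.075) or ESC dCD replicate 3 (0.45).

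Sycp3, the partner of Sycp2 in the lateral element, was at 29.3, 25.9 and 30.1 CPM in ESC WT, 18.7, 16.7 and 16.7 in dCD and 5.31, 4.69 and 3.63 in MLL2dTAG. The 3 groups were separate, and the MLL2dTAG change was -2.66 (SE 0.12). In NPC, where WT had 0.791, 0.665 and 0.837 CPM, its change in MLL2dTAG was -1.23 (SE 0.33). Its value of 0.86 in NPC dCD became 0.63 and lost its call without NPC dCD replicate 1 (adjusted p = 0.051). Chpt1 on the opposite strand shares 660 exonic bases with it.

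Hormad2, an axis protein that monitors pairing, rose where Sycp2 and Sycp3 fell. It was at 9.31, 10.9 and 12 CPM in ESC WT and 28.1, 24.5 and 23.8 in MLL2dTAG. The NPC levels were 0.728, 0.585 and 0.754 CPM in WT, 1.13, 1.65 and 1.32 in dCD and 7.83, 7.19 and 6.18 in MLL2dTAG. MLL2dTAG lay above WT at both stages, with changes of 1.23 (SE 0.10) and 3.36 (SE 0.17), and the change in NPC dCD was 1.0 (SE 0.23). Its paralog Hormad1 was 0.76 higher in ESC MLL2dTAG and 1.30 higher in NPC dCD. In NPC MLL2dTAG Hormad1 was at 0.623, 0.618 and 1.1 CPM against 0.316, 0.506 and 0.279 in WT, and its value of 1.06 became 0.73 (adjusted p = 0.059) without NPC MLL2dTAG replicate 3.

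The other members of this group had changes of less than 2-fold. Syce1, a central element protein, changed by -0.55 in ESC MLL2dTAG and by 0.98 in NPC MLL2dTAG. In dCD it was 0.47 higher in ESC, and the NPC value of 0.27 lost its call with DESeq2 and without NPC WT replicate 1 (0.13, adjusted p = 0.35) or any of the 3 NPC dCD libraries (0.24 to 0.29). Syce2 was lower in ESC of both lines, with changes of -0.46 in dCD and -0.41 in MLL2dTAG, and in NPC dCD, with -0.64. Sycp1, the transverse filament, changed by -0.49 in NPC dCD and by -0.38 in NPC MLL2dTAG. In ESC dCD Sycp1 was -0.34, a call lost without ESC WT replicate 2 (-0.27) or ESC WT replicate 3 (-0.26, adjusted p = 0.065).

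**Figure D3:**
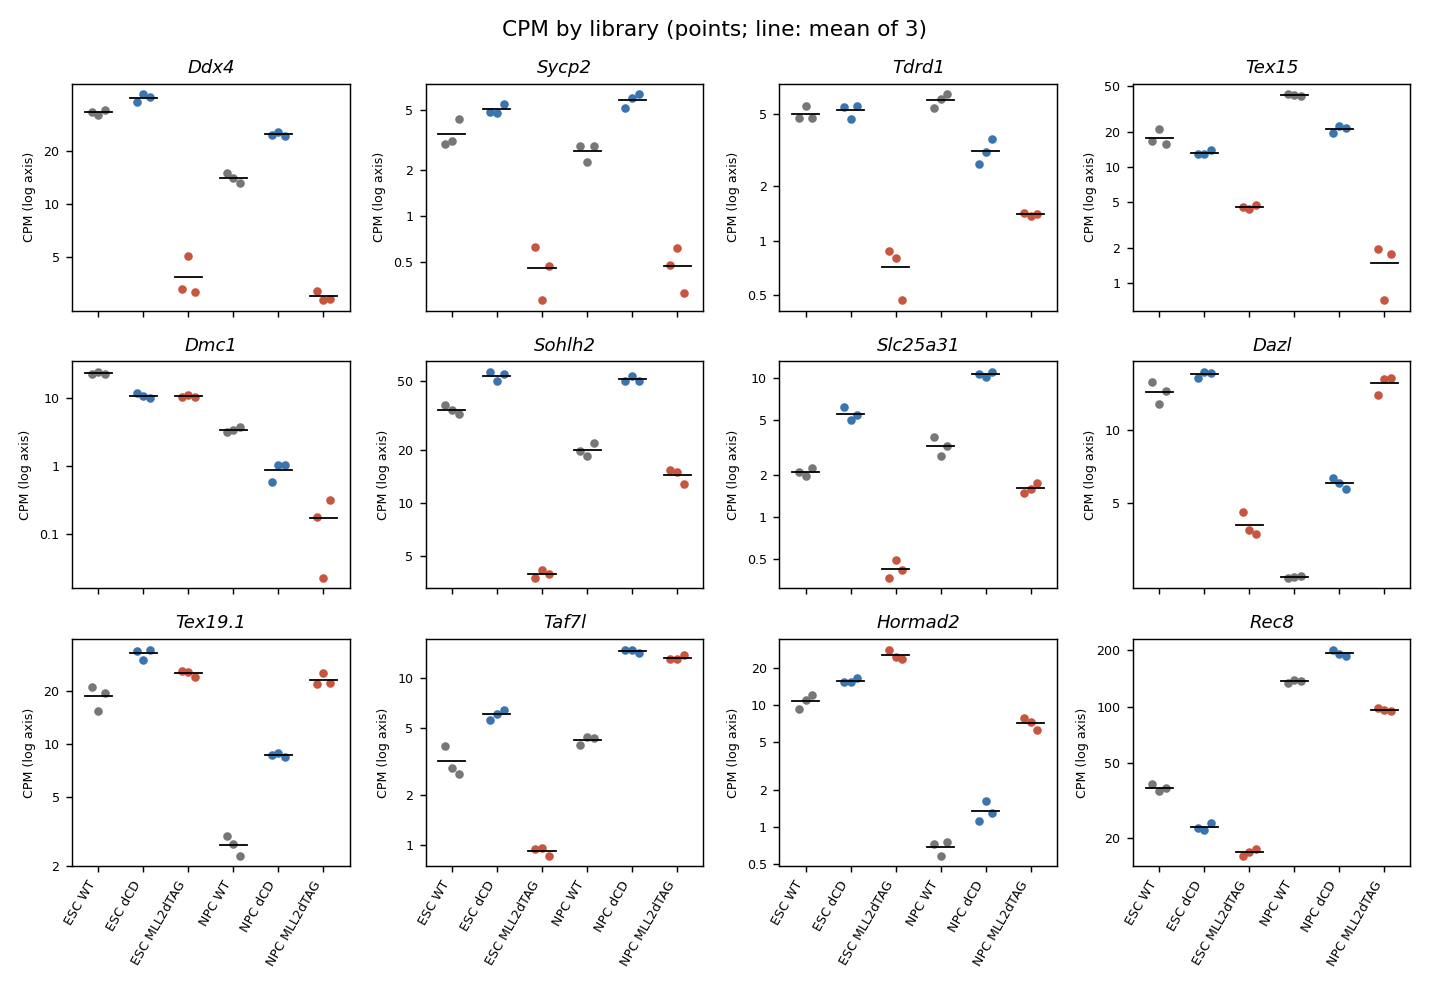
CPM of 12 members in each of the 18 libraries (points, log axis with its own range for each gene), with the mean of 3 libraries as a line, grey for WT, blue for dCD and red for MLL2dTAG. Ddx4, Sycp2 and Tdrd1 are lowest in MLL2dTAG at both stages, and Dazl and Taf7l are below WT in ESC MLL2dTAG and above WT in NPC MLL2dTAG.

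The 3 meiotic cohesin genes were all lower in ESC dCD, where 22.6% of all genes were called lower. In MLL2dTAG Smc1b and Rec8 were lower and Stag3 higher at both stages. Smc1b, the meiotic SMC subunit, was at 56.9, 62.8 and 55.6 CPM in ESC WT, 22.9, 22.2 and 19.7 in dCD and 20.7, 20.9 and 21 in MLL2dTAG. Both lines lay below WT, with changes of -1.44 (SE 0.07) and -1.48 (SE 0.07). In NPC MLL2dTAG the change was -0.78 (SE 0.12), and the NPC dCD value of -0.06 did not pass. Rec8, the meiotic kleisin, was at 38.9, 35.9 and 36.9 CPM in ESC WT, 22.7, 22.3 and 24.1 in dCD and 16.1, 17 and 17.6 in MLL2dTAG, with a change of -1.13 (SE 0.05) in MLL2dTAG. The NPC means were 136 ± 2.11 CPM in WT, 193 ± 7.53 in dCD and 96.4 ± 1.8 in MLL2dTAG (SD, n = 3). So it was lower in dCD than in WT in ESC, -0.69, and higher in NPC, 0.5. Stag3, the meiotic SA subunit, was higher in MLL2dTAG at both stages, 0.43 and 0.92, and lower in dCD at both, -0.54 and -0.34.

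Most tested members of meiotic recombination were lower in both lines. In ESC 3 of 5 tested members were lower in dCD and 5 of 5 in MLL2dTAG, and in NPC 3 of 5 in dCD and 4 of 5 in MLL2dTAG. Of all genes, 22.6% (dCD) and 28.2% (MLL2dTAG) were called lower in ESC, and 26.8% and 28.4% in NPC. Dmc1, the meiotic recombinase, was at 22.6, 24.7 and 23.2 CPM in ESC WT, 11.9, 10.8 and 10.2 in dCD and 10.5, 11.1 and 10.3 in MLL2dTAG. The NPC levels were 3.19, 3.35 and 3.77 CPM in WT, 0.582, 1.05 and 1.03 in dCD and 0.178, 0.0221 and 0.313 in MLL2dTAG. Each edited group lay below WT at both stages, with changes of -1.10 (SE 0.11) and -1.94 (SE 0.20) in dCD and -1.14 (SE 0.11) and -4.38 (SE 0.27) in MLL2dTAG. The last value rests on 19 counts and was -3.77 without NPC MLL2dTAG replicate 2 and -5.22 without replicate 3.

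Meiob, which binds single-stranded DNA with its partner SPATA22, was at 6.54, 6.6 and 7.85 CPM in ESC WT, 0.981, 1.82 and 2.05 in dCD and 1.14, 1.15 and 1.04 in MLL2dTAG. Both lines were below WT, with changes of -2.10 (SE 0.23) and -2.66 (SE 0.24). In NPC dCD it was at 0.215, 0.165 and 0.41 CPM against 1.36, 1.06 and 1.34 in WT, a change of -2.24 (SE 0.35). NPC MLL2dTAG had 2 Meiob counts against 131 in WT, a ratio of 0.0137 with an exact 95% counting interval of 0.00164 to 0.0503. Both counts came from replicate 1.

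Tex15, a protein of recombination and of transposon silencing, had the lowest log2 fold change among members with counts in every NPC library. It was at 16.9, 21.3 and 16 CPM in ESC WT and 4.54, 4.34 and 4.72 in MLL2dTAG. In NPC it was at 43.1, 42.4 and 41.6 CPM in WT, 19.7, 22.8 and 21.8 in dCD and 1.96, 0.706 and 1.77 in MLL2dTAG. The WT level rose on differentiation, the MLL2dTAG mean was 4.54 CPM in ESC and 1.48 in NPC, and the changes against WT were -2.0 (SE 0.13) in ESC and -4.89 (SE 0.14) in NPC. In dCD they were -0.44 and -0.98.

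Tex11, an X-linked protein of crossover formation, was at 6.97, 7.86 and 7.57 CPM in ESC WT and 1.68, 1.89 and 2.04 in MLL2dTAG, and at 11.4, 11.6 and 12.2 and 3.32, 3.24 and 2.87 in NPC. MLL2dTAG was lower at both stages, with changes of -1.99 (SE 0.13) and -1.90 (SE 0.10), and the difference of 0.09 (SE 0.17) between them did not pass (adjusted p = 0.69). In dCD Tex11 was higher, with changes of 0.66 in ESC and 0.30 in NPC. Mei1, needed for the breaks that start recombination, changed by -2.02 (SE 0.57) in ESC MLL2dTAG, at 0.233 ± 0.117 CPM against 0.991 ± 0.216 in WT (SD, n = 3). Spo11, which makes those breaks, had 6, 8 and 1 counts over ESC WT, dCD and MLL2dTAG and 27, 7 and 9 over NPC, and was not tested.

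Of the germ cell transcription factors only Sohlh2 had enough counts for the test. Sohlh2, a helix-loop-helix factor of early spermatogonia and oocytes, was at 36.1, 33.8 and 32.3 CPM in ESC WT, 56.1, 49.6 and 54.4 in dCD and 3.74, 4.16 and 3.94 in MLL2dTAG. In NPC it was at 19.7, 18.7 and 22.1 CPM in WT, 49.9, 53.4 and 49.8 in dCD and 15.5, 15 and 12.8 in MLL2dTAG. dCD was above and MLL2dTAG below WT at both stages, with changes of -3.10 (SE 0.09) in ESC MLL2dTAG and 1.34 (SE 0.07) in NPC dCD. In ESC dCD it was 0.65 and in NPC MLL2dTAG -0.48. The oocyte factor Figla had 31, 8 and 2 counts over ESC WT, dCD and MLL2dTAG and 0, 2 and 0 over NPC. For MLL2dTAG against WT in ESC that is a ratio of 0.0517, with a 95% counting interval of 0.00599 to 0.203. Nobox, also of the oocyte, had 12, 18 and 6 counts over ESC and 10, 0 and 2 over NPC.

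The 3 germ cell paralogs of general factors were higher in dCD at both stages, where 25.7% (ESC) and 26.7% (NPC) of all genes were called higher. Slc25a31, an ADP/ATP carrier of germ cells, was at 2.13, 1.99 and 2.24 CPM in ESC WT, 6.19, 5.01 and 5.44 in dCD and 0.366, 0.496 and 0.418 in MLL2dTAG. In NPC the levels were 3.76, 2.74 and 3.24, 10.8, 10.1 and 11.1 and 1.48, 1.59 and 1.77 CPM. The groups kept the order dCD, WT, MLL2dTAG at both stages without overlap. The changes were 1.39 (SE 0.16) and 1.72 (SE 0.13) in dCD and -2.29 (SE 0.23) in ESC MLL2dTAG, with -1.0 in NPC MLL2dTAG.

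Taf7l, the X-linked paralog of a TFIID subunit, was at 3.94, 2.88 and 2.68 CPM in ESC WT, 5.63, 6.13 and 6.45 in dCD and 0.952, 0.962 and 0.861 in MLL2dTAG. The NPC libraries had 3.99, 4.44 and 4.35 CPM in WT, 14.7, 14.8 and 14.2 in dCD and 13, 13.1 and 13.8 in MLL2dTAG. Both lines stood above WT in NPC, with changes of 1.77 (SE 0.10) and 1.63 (SE 0.10), and MLL2dTAG stood below WT in ESC, with a change of -1.74 (SE 0.18). Rpl10l, a retrocopy of the ribosomal protein gene Rpl10, was at 2.85, 1.6 and 2.34 CPM in NPC WT and 7.11, 6.23 and 6.16 in NPC dCD, a change of 1.54 (SE 0.16). In ESC it was 0.53 higher in dCD and 0.69 higher in MLL2dTAG. Its counts are uncertain, since reads of Rpl10 may be placed on it. Members called with a log2 change of at least 1 either way against WT and a mean of at least 1 CPM in 1 of the groups made up 55 comparisons. The largest adjusted p among the 55 was 6.0e-04, for Tdrd9 in NPC dCD, and in each the libraries of the line and of WT did not overlap. Selection by the test and by the size of the change makes such separation likely, so here and above it adds no support. Its share among all genes selected in the same way was not counted.

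The same line was measured at 2 stages in separate libraries, so the stages can be set against each other. In MLL2dTAG, 26 members were called at both stages, or 70.3% against 41.3% of all genes. Of these 14 were lower at both (37.8% of members, 14% of all genes), 6 higher at both (16.2%, 16.7% of all genes) and 6 lower in ESC and higher in NPC, while none was higher in ESC and lower in NPC. At least 2-fold lower at both stages were 10 members, or 27.0%, against 848 of all 20511 genes, or 4.13%. In dCD, 22 were called at both stages, or 59.5% against 32.1% of all genes. Of these 13 were higher at both (35.1%, 11.6% of all genes), 6 lower at both (16.2%, 10.9% of all genes) and 3 lower in ESC and higher in NPC. The same direction was kept by 86.4% of these in dCD (69.9% over all genes) and 76.9% in MLL2dTAG (74.3% over all genes). The 6 members that turned in MLL2dTAG were Dazl, Taf7l, Syce1, Tdrd7, Piwil2 and Asz1, of which Asz1 rests on few counts and Tdrd7 on an ESC call that was not stable.

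The change in NPC minus the change in ESC tests those turns directly. It was called for 28 of 37 members in MLL2dTAG, 25 above 0 and 3 below, where 49% of all genes were called, 26.4% above 0 and 22.6% below. In dCD it was called for 22, 16 above 0 and 6 below, where 42.9% of genes were called, 20% above 0 and 22.9% below. In MLL2dTAG it was 4.45 (SE 0.15) for Dazl and 3.38 (SE 0.20) for Taf7l, and -3.23 (SE 0.33) for Dmc1. A positive value also arises where a gene was lowered at both stages but less in NPC, as in Sohlh2, 2.62 (SE 0.12), and Tdrd5, 2.28 (SE 0.39).

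**Figure D4:**
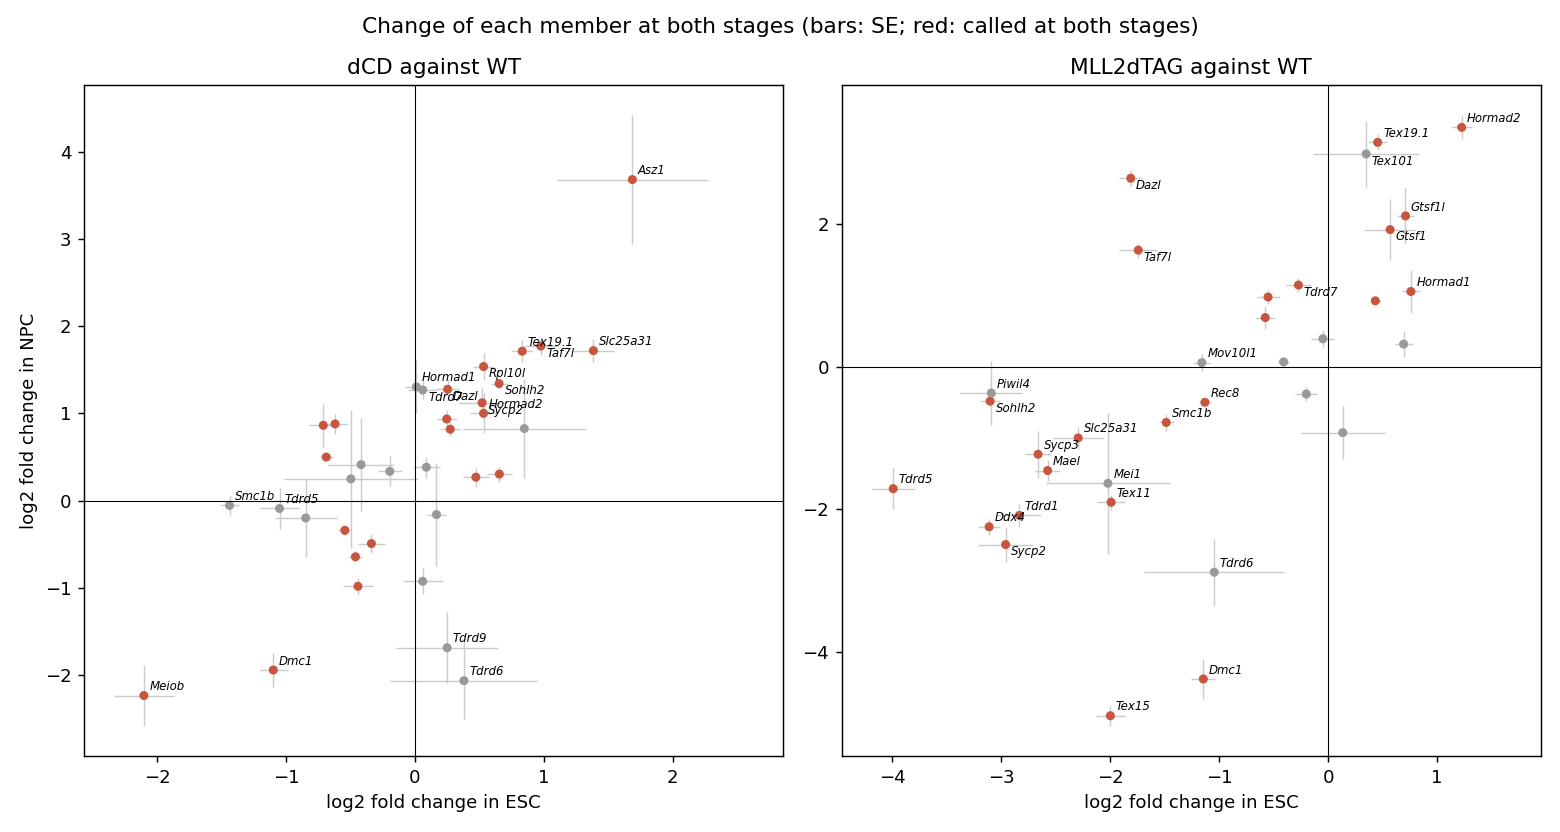
Log2 fold change against WT in ESC (x axis) and in NPC (y axis) for dCD (left, 36 members) and MLL2dTAG (right, 34 members), with bars of 1 SE, axes scaled for each panel, and red for members called at both stages. Members with at most 3 counts in a group are not drawn. Sycp2, Ddx4 and Tdrd1 lie low at both stages in MLL2dTAG, and Dazl and Taf7l lie to the left and above 0.

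Stem cell transcripts were also higher in NPC MLL2dTAG, and they can be set beside the members that rose there. The ESC markers in NPC MLL2dTAG summed to 4.56% of their ESC MLL2dTAG level, against 0.816% in WT. Dazl stood at 381% of its ESC MLL2dTAG level, Taf7l at 1434%, Tex101 at 267%, Tdrd7 at 194%, Syce1 at 149% and Tex19.1 at 91.2%. The same shares in WT were 17.4%, 135%, 41.2%, 72.4%, 50.3% and 14.1%. A level lowered in ESC MLL2dTAG raises the share, as for Dazl (4.08 CPM against 14.3 in ESC WT) and Taf7l (0.925 against 3.17). Stk31 stood at 53.4%, Stag3 at 47.4%, Hormad2 at 27.7%, Piwil2 at 16.9%, Gtsf1 at 16.8%, Hormad1 at 1.73% and Gtsf1l at 1.16%, and Asz1 had 0 counts in ESC MLL2dTAG and 22 in NPC MLL2dTAG. Of these 14 members, Dazl, Taf7l, Tex101, Tdrd7, Syce1 and Asz1 had an NPC level above that of ESC in MLL2dTAG, as Taf7l had also in WT. Hormad1 and Gtsf1l had a smaller share than the markers in MLL2dTAG. The part of remaining stem cells in these values was not tested.

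The edited lines were also tested against each other. In ESC, 26 of 37 members differed, 21 lower and 5 higher in MLL2dTAG than in dCD, where 47.2% of all genes were called, 23.7% lower and 23.4% higher. At least 2-fold lower were 17 members and 8.58% of all genes, and at least 2-fold higher 0 members and 3.13% of all genes. In NPC, 26 differed, 17 lower and 9 higher, where 55.9% of genes were called, 24.3% lower and 31.6% higher. Among the largest differences in ESC were those of Sohlh2, -3.75 (SE 0.09), Slc25a31, -3.68 (SE 0.20), Sycp2, -3.48 (SE 0.24), and Ddx4, -3.38 (SE 0.10). Dmc1 and Smc1b, lower than WT in both lines, had differences between the lines in ESC of -0.05 (SE 0.12) and -0.05 (SE 0.08) that did not pass the test (adjusted p = 0.79 and 0.65). In NPC Dmc1 did differ, with a change of -2.43 (SE 0.37), as did Tex15, -3.91 (SE 0.15). Dazl and Hormad2 were higher in NPC MLL2dTAG than in NPC dCD, with changes of 1.37 (SE 0.10) and 2.35 (SE 0.15).

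Members with and without an E-box before their start had similar medians in ESC MLL2dTAG, -1.16 over 13 members and -1.14 over 18. In NPC MLL2dTAG the medians were -0.38 and 0.65, with 4 of 13 higher and 7 lower, and 9 of 18 higher and 6 lower. In NPC dCD they were 0.82 and 0.66, with 8 of 13 higher and 5 lower, and 10 of 18 higher and 1 lower. Of all genes, 33.3% were called higher and 28.4% lower in NPC MLL2dTAG, and 26.7% and 26.8% in NPC dCD. The values by E-box are descriptions of few genes, and a difference between members with and without it was not tested.

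A wider list of 42 other germline and meiosis genes, of which 37 were tested, gave 10 higher and 17 lower in ESC MLL2dTAG and 11 higher and 17 lower in NPC MLL2dTAG, where 73.0% and 75.7% of its tested genes were called against 56.9% and 61.7% of all genes. In dCD it gave 7 higher and 11 lower in ESC and 9 higher and 10 lower in NPC, and the shares called, 48.6% and 51.4%, were near those of all genes, 48.3% and 53.5%. At least 2-fold lower were 11 of these 37 genes in ESC MLL2dTAG and 13 in NPC MLL2dTAG, against 10.4% and 11.9% of all genes. On WT differentiation 9 rose and 25 fell (91.9% called, against 79.5% of all genes). Hfm1, a helicase of crossover formation, had the lowest changes in MLL2dTAG, -4.01 (SE 0.23) in ESC and -6.76 (SE 0.27) in NPC, and Fkbp6, a piRNA chaperone partner, was 4.12 (SE 0.13) higher in NPC. Meioc, which holds germ cells in meiotic prophase, was 1.61 (SE 0.06) higher in NPC dCD. Stra8, the retinoic acid target that starts meiosis, rose by 3.03 (SE 0.10) on WT differentiation.

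Among 19 repressors of germline genes, 11 were called in ESC MLL2dTAG, 5 higher and 6 lower, and 14 in NPC MLL2dTAG, 9 higher and 5 lower. The shares were 57.9% and 73.7%, against 56.9% and 61.7% of all genes, so that in ESC was near the background. In dCD 12 were called in ESC, 6 each way, and 15 in NPC, 3 higher and 12 lower, or 63.2% and 78.9%, against 48.3% and 53.5% of all genes. The median log2 changes over the 19 were -0.02 in ESC and 0.06 in NPC for MLL2dTAG, and -0.01 and -0.13 for dCD. Dnmt1 and Mga, named next, were both lower, and no repressor that was higher is named, so they do not stand for the list. Dnmt1, the maintenance DNA methyltransferase, was -1.13 (SE 0.03) in ESC MLL2dTAG and -0.89 (SE 0.03) in NPC MLL2dTAG. Mga, the E-box subunit of the Polycomb complex described above, was lower in dCD, -0.59 in ESC and -0.43 in NPC, and in MLL2dTAG, -0.70 and -0.52. Of the edited genes themselves, Kmt2b, which encodes MLL2, was -0.04 in ESC MLL2dTAG (adjusted p = 0.49). A degron or a point mutation need not change mRNA, so these values do not check the labels. The part of the repressors in the members' changes was not tested.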

How the data were processed

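mRNA was sequenced from 36 samples, and the 18 libraries of WT, dCD and MLL2dTAG at both stages were used. The authors deposited raw counts per gene symbol, without normalization. HTSeq is named in the submitters' processing notes, and the labels' protocols name a stranded TruSeq mRNA kit. The aligner, the genome build and the strand setting of the counting are not given in the sources used here. Of the counts from 1 to 10, 60.8% to 66.5% were even, so an alternative halved all counts. A further 6 columns of this table, whose names repeat, and 12 columns of another table were not used, and 18 samples in 8 groups were not analysed here.

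Counts were analysed with edgeR 4.0.16 in R 4.3.3: filterByExpr by group left 20511 genes, libraries were scaled by TMM, and the 18 libraries entered 1 quasi-likelihood fit with a mean for each group (12 residual degrees of freedom). The F test was two-sided with Benjamini-Hochberg adjustment over all genes, and adjusted p under 0.05 was called. Interactions are the change against WT in NPC minus that in ESC. The procedure was tested on simulated data with few changed genes and the same spread for all genes. Far more genes were called in the data here, so that test does not check error rates in these comparisons. Changes are log2 fold changes with standard errors (SE). CPM used TMM factors. A group without counts was set to 3 counts for a lower bound, and 1 to 3 counts gave a ratio with an exact interval. Reads are not independent molecules, so floors and intervals cover counting error only.

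The members and lists were chosen with earlier results of these data known. Values per library are given for members called with a log2 change of at least 1 either way and a mean of at least 1 CPM in a group, for Gtsf1, Gtsf1l and Hormad1 at lower levels in NPC (chosen after their values were seen), and from the wider lists a few of the called genes with the most extreme changes and a mean of at least 1 CPM, with the edited genes. Mga and Meioc were kept for their role after their values were seen. Exon lengths and overlaps came from GENCODE vM21, and promoters from RefSeq. Alternatives were DESeq2 1.42.0, its size factors in edgeR, no filter, only the groups compared, halved counts, a replicate block, and leaving out each library.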

Additional observations from a re-analysis of the deposited data

Results flagged for a closer look

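For 48 results the change against WT differed between the stages by the interaction test of edgeR (NPC change minus ESC change on the log2 scale, adjusted p under 0.05). Groups of 3 are too small for a test of single outlying libraries. Asz1 and Meiob in MLL2dTAG, with 0 to 3 counts in a group, were left out.

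In MLL2dTAG the difference was largest for Dazl, 4.45, and Taf7l, 3.38, which were below WT in ESC and above it in NPC. Syce1 (1.53), Tdrd7 (1.42) and Piwil2 (1.26) had the same pair of directions. Genes above WT at both stages, and more so in NPC, were Tex19.1 (2.69), Hormad2 (2.13), Gtsf1l (1.40), Gtsf1 (1.35) and Stag3 (0.49). Genes whose fall was smaller in NPC were Sohlh2 (2.62), Tdrd5 (2.28), Sycp3 (1.44), Slc25a31 (1.30), Mael (1.12), Ddx4 (0.87), Tdrd1 (0.75), Smc1b (0.70) and Rec8 (0.63). The values for Piwil4 (2.72), Mov10l1 (1.22) and Syce2 (0.48) came with a fall in ESC and no call in NPC, and those for Tex101 (2.63) and Stk31 (0.44) with no call in ESC and a rise in NPC. The change was lower in NPC for Dmc1 (-3.23) and Tex15 (-2.89).

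In dCD, Sycp3 (1.57), Mael (1.5) and Rec8 (1.19) were below WT in ESC and above it in NPC. A rise that was larger in NPC was found for Dazl (1.02), Rpl10l (1.0), Tex19.1 (0.88), Taf7l (0.80), Sohlh2 (0.69), Mov10l1 (0.69) and Ddx4 (0.54), and Tex11 (-0.35) rose less in NPC. Hormad1 (1.29) and Tdrd7 (1.21) rose in NPC without a call in ESC. Smc1b (1.38) and Tdrd5 (0.96) fell in ESC without a call in NPC, Stag3 (0.20) fell less in NPC, and Piwil2 (0.53) was called at neither stage. The change was lower in NPC for Tdrd6 (-2.45), Tdrd9 (-1.94), Tdrd1 (-0.99), Dmc1 (-0.85) and Tex15 (-0.54).

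In some alternatives the call was lost for Piwil2, Stag3 and Tex11 in dCD and for Gtsf1, Gtsf1l, Stk31, Sycp3 and Tdrd1 in MLL2dTAG, with adjusted p up to 0.25, for Piwil2 without NPC dCD replicate 3. Leaving out some single library ended each of these calls. In MLL2dTAG the values then were 0.96 for Gtsf1l (without NPC WT replicate 2) and 1.08 for Sycp3 (without NPC MLL2dTAG replicate 3). Tdrd1 had 0.49 without ESC MLL2dTAG replicate 3 and 0.66 without ESC WT replicate 2. Gtsf1 had 0.86 without NPC MLL2dTAG replicate 2, 1.16 without ESC WT replicate 1 and 1.25 without NPC WT replicate 2. The smallest such value of Stk31 was 0.36, without ESC WT replicate 2. In dCD the smallest in size were 0.12 for Stag3, -0.30 for Tex11 and 0.30 for Piwil2, without NPC dCD replicates 2, 1 and 3 in that order.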

How the results depend on the processing

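Of 4422 values of the members under the alternatives, 4293 kept their side of the threshold, 82 lost a call and 47 gained one. Among values called in the main fit or in the alternative, 0 reversed direction. The direction of values called in neither was not compared. Of the 82, 66 came from leaving out 1 library. With 1 library left out, the members called ranged in dCD from 22 to 26 in ESC and 27 to 28 in NPC, in MLL2dTAG from 31 to 34 in ESC and 28 to 31 in NPC, and from 34 to 37 in WT differentiation. A smaller group loosens the low-count filter, so members not tested otherwise entered some of these counts. The interactions ranged from 20 to 23 in dCD and 26 to 30 in MLL2dTAG, and the direct tests between lines from 24 to 27 in ESC and 25 to 27 in NPC. DESeq2 called 27 members in ESC and 28 in NPC for dCD, 31 and 30 for MLL2dTAG and 34 in WT differentiation. Halving the counts ended 1 call and added 6. Low counts limit Asz1, Mei1, Meiob, Tdrd6, Tex101, Spo11, Figla and Nobox.

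The replicate numbers are shared by the groups, but same-numbered libraries did not deviate together: over 45 pairs of same-numbered libraries from different groups the correlations ran from -0.028 to 0.032, none over 0.1, and 11 were highest with the own number. With the replicate block, the members called numbered 26 (ESC) and 28 (NPC) in dCD, 31 (ESC) and 31 (NPC) in MLL2dTAG and 33 in WT differentiation, and it changed 1 call, that of Gtsf1 in ESC MLL2dTAG (0.57, adjusted p = 0.052).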
